A study of Homo sapiens with 2 samples.

Results

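The miR-30 family was followed in small RNA libraries of BEAS-2B, a line of immortalised epithelial cells from human bronchus with wild-type genotype, at 24 h after manganese or after vehicle (control). There was 1 library per group, both from the same line and culture medium, and no manganese dose is stated in the labels. The members are the mature arms of hsa-miR-30a, hsa-miR-30b, hsa-miR-30c, hsa-miR-30d and hsa-miR-30e, taken by name from the deposited count table. They make 11 of its 2904 entries, 5 of them 5p arms and 6 of them 3p arms. A further entry, p-hsa-miR-30, has another name, was listed at 0 in both libraries and was not counted as a member. The total was 1091070 counts in the manganese library and 1064179 in the control library. No difference here has a replicate check: every interval covers counting error only, and each comparison is of 2 libraries rather than of 2 conditions.

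MicroRNAs are cut from hairpin precursors, and 1 arm of the hairpin, the guide, is usually kept by an Argonaute protein while the other, the passenger, is mostly lost. The guide pairs with messenger RNAs through its seed, bases 2 to 8, and lowers their stability and translation. In the miR-30 family the 5p arm is the guide, and its shared seed is known to act on SNAI1, a driver of epithelial-mesenchymal transition, and on BECN1, a starter of autophagy. The family is abundant in many epithelia, lung included, and 6 hairpin genes encode it in neighbouring pairs.

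The sequences of the arms made from 4 of these hairpins show what the members share and how closely they can resemble each other. The mature sequences are RefSeq's on GRCh38.p14, 5′ to 3′, with the seed in capitals. The 5p arms are these.
hsa-miR-30a-5p: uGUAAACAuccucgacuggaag
hsa-miR-30e-5p: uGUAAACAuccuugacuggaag
hsa-miR-30c-5p: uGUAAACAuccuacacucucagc
The 3p arms fall under a pair of other seeds.
hsa-miR-30a-3p: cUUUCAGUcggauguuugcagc
hsa-miR-30e-3p: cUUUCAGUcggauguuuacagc
hsa-miR-30c-1-3p: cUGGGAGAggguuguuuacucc
hsa-miR-30c-2-3p: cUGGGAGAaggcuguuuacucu

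The 3 printed 5p arms carry the seed GUAAACA and begin with U, and the 4 printed 3p arms begin with C. Among the other hairpin names with both arms measured and a RefSeq sequence, 60.5% of 81 more abundant arms began with U and 38.1% of 84 less abundant arms began with C. Counted from the 5′ end, miR-30a-5p and miR-30e-5p differed by C13U alone, 21 of 22 bases being equal, and miR-30a-3p and miR-30e-3p by G18A alone. The arm miR-30c-5p matched miR-30a-5p at 17 of 22 bases. The sources used here do not say how reads with a mismatch at such a base were assigned. The seed of the miR-30c 3p arms is also that of miR-6788-5p in RefSeq, which was listed at 0 in both libraries.

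The miR-30c hairpins are shown because their counts can be told apart by the 3p arm but not by the 5p arm. Both are RefSeq sequences on GRCh38.p14, with the 5p and then the 3p arm in capitals.
MIR30C1: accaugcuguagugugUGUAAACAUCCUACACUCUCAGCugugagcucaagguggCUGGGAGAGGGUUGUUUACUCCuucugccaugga
MIR30C2: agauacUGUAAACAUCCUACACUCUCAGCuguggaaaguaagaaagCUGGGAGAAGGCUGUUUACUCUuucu
The 5p arm of 23 bases is identical in both hairpins, while the 3p arms differ at 3 of 22 bases.

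The 5p arms carried nearly all of the family's counts, and as a sum they were lower in the manganese library. They summed to 58999 counts with manganese, 5.41% of that library, against 76162 counts or 7.16% of the control library. The fold, the ratio of counts scaled by TMM library sizes with manganese over control, was 0.786 (95% interval 0.777 to 0.794). Between the 2 libraries this is a decrease of 1.27-fold. The 6 3p arms summed to 272 counts with manganese and 271 in the control, a fold of 1.02 (0.857 to 1.21). The 5p sum was thus lower beyond counting error, and the 3p sum was not distinguishable from equality at this depth.

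The abundance order of the 5p arms was the same in both libraries, miR-30a-5p first, then miR-30c-5p, miR-30e-5p, miR-30d-5p and miR-30b-5p. Their shares of the library had exact 95% intervals that did not overlap between any neighbours in either library. The arm miR-30a-5p ranked 6th of all entries with manganese and 5th in the control, and miR-30b-5p, the rarest 5p arm, ranked 50th with manganese and 51st in the control. Within the 5p sum, miR-30a-5p took 52.9% with manganese and 53.8% in the control.

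**Figure D1:**
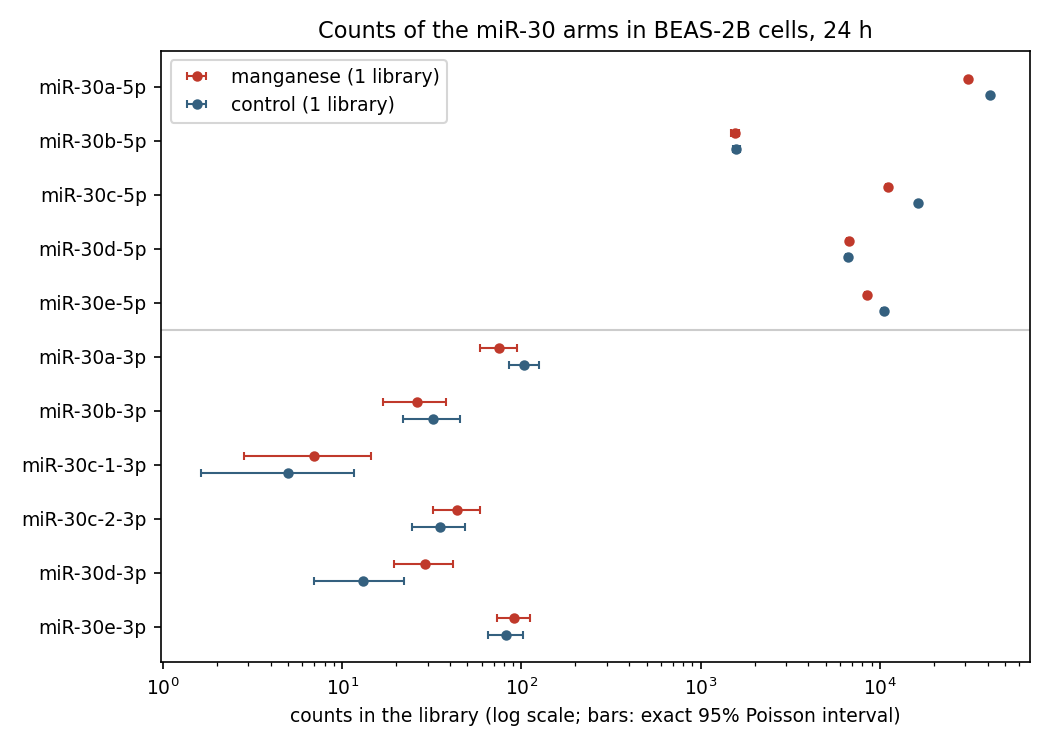
Counts of each miR-30 arm (horizontal log axis) in the manganese and the control library, 1 library each, with exact 95% Poisson intervals as bars. The 5p arms lie between 1555 and 40970 counts and the 3p arms between 5 and 104. The intervals of the manganese and control points overlap for miR-30b-5p, miR-30d-5p and every 3p arm.

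The most abundant 5p arms were lower with manganese and the rarest were close to equal. The arm miR-30a-5p, known to repress BECN1, had 31232 counts with manganese and 40970 in the control, a fold of 0.773 (0.762 to 0.785). For miR-30c-5p, known to repress the lipoprotein assembly protein MTTP in liver, the counts were 11060 with manganese and 16427 in the control. Its fold of 0.683 (0.667 to 0.700) was the lowest of the 11 members.

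The third, miR-30e-5p, had 8451 counts with manganese and 10508 in the control (0.816, 0.793 to 0.840). The arms miR-30d-5p and miR-30b-5p, reported to repress GALNT7 in melanoma, did not share this. The counts of miR-30d-5p were 6701 with manganese and 6672 in the control (1.02, 0.985 to 1.05). Those of miR-30b-5p were 1555 with manganese and 1585 in the control (0.995, 0.927 to 1.07). Which side of 1-fold these last arms lay on changed with the scaling.

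Ratios between 5p arms do not depend on how the libraries are scaled, and their changes are given for the pairs of 5p arms. Of the 10 pairs of 5p arms, 9 had a ratio whose change between the libraries excluded 1-fold. With a log-normal (Woolf) interval it was again 9 of 10, against 85.7% of the 2926 pairs of entries with 1000 or more counts, a share near that of the family. There were 1.65 counts of miR-30c-5p per count of miR-30d-5p with manganese and 2.46 in the control, a ratio of 0.670 (0.643 to 0.699). For miR-30a-5p over miR-30d-5p the ratio was 4.66 with manganese and 6.14 in the control (0.759, 0.731 to 0.788). The pair that differ by 1 base, miR-30a-5p over miR-30e-5p, moved less, 3.70 with manganese and 3.90 in the control (0.948, 0.918 to 0.979). The exception among the 10 was miR-30b-5p over miR-30d-5p, 0.232 with manganese and 0.238 in the control (0.977, 0.903 to 1.06).

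The arms were also grouped by the place of their hairpins in the genome, given here on GRCh38 from the GENCODE 29 annotation. This grouping was chosen after the values were seen. MIR30A (chromosome 6, 71403551 to 71403621) and MIR30C2 (71376960 to 71377031) are 26.5 kb apart on the minus strand, in introns of the long non-coding RNA genes LINC00472 and AL136164.2. MIR30E (chromosome 1, 40754355 to 40754446) and MIR30C1 (40757284 to 40757372) are 2837 bases apart on the plus strand, in introns of NFYC, which encodes a subunit of the CCAAT-binding factor NF-Y. MIR30B (chromosome 8, 134800520 to 134800607) and MIR30D (134804876 to 134804945) are 4268 bases apart on the minus strand and lie in no other annotated gene.

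Leaving out miR-30c-5p, which both of the first loci make, the arms of the MIR30A and MIR30C2 locus summed to 31351 counts with manganese and 41109 in the control, a fold of 0.774 (0.762 to 0.785). Those of the MIR30E and MIR30C1 locus summed to 8549 with manganese and 10595 in the control (0.819, 0.796 to 0.842). Those of the MIR30B and MIR30D locus summed to 8311 with manganese and 8302 in the control (1.02, 0.985 to 1.05). Each sum is mostly 1 or 2 5p arms, so it restates their values by position, and mature counts do not show how much of each precursor was made.

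The 3p arms were rare, and their counts allow only coarse comparisons. The arm miR-30e-3p, reported to repress the NF-kB inhibitor gene NFKBIA in glioma, had 91 counts with manganese and 82 in the control (1.13, 0.826 to 1.54). The counts of miR-30a-3p were 75 with manganese and 104 in the control (0.732, 0.536 to 0.994). Its upper bound was just under 1-fold and passed 1-fold when the 5 most abundant entries, or the blood cell miRNAs, were left out of the library totals.

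For miR-30c-2-3p, known to repress XBP1, a transcription factor of the unfolded protein response, there were 44 counts with manganese and 35 in the control (1.28, 0.800 to 2.05). The arm miR-30b-3p had 26 counts with manganese and 32 in the control (0.824, 0.472 to 1.43). Both intervals include 1-fold. The rarest, miR-30c-1-3p, had 7 counts with manganese and 5 in the control, too few for the limit of 20 counts over both libraries from which an entry was called measured.

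The arm miR-30d-3p had 29 counts with manganese and 13 in the control. Its fold of 2.26 (1.14 to 4.74) rests on 42 counts in all, and it reached the measured limit with its manganese counts. The 5p arm of the same hairpin was near equality, as given above.

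**Figure D2:**
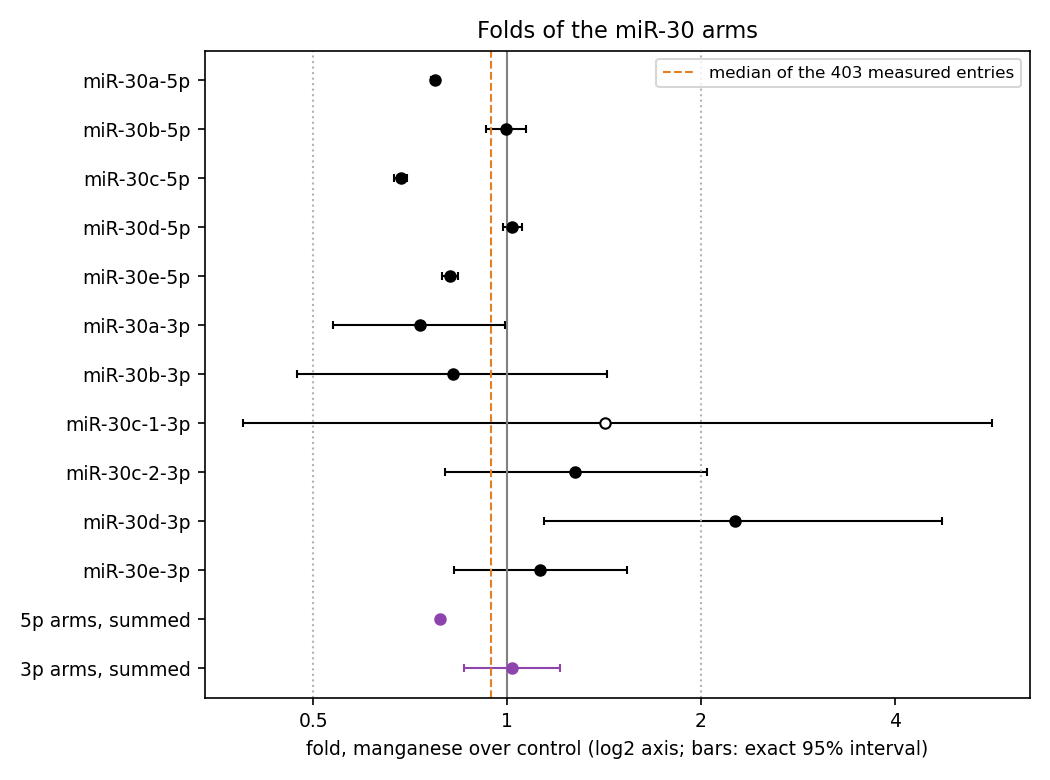
Fold of each miR-30 arm and of the summed 5p and 3p arms (horizontal log2 axis, manganese over control) with exact 95% intervals; the open circle is miR-30c-1-3p, which was not measured, the dotted lines mark 0.5 and 2, and the dashed line is the median of the 403 measured entries. The points of miR-30a-5p, miR-30c-5p and miR-30e-5p lie left of 1, those of miR-30b-5p and miR-30d-5p at 1, and miR-30d-3p alone lies beyond 2.

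An entry was called where its fold was 2 or more, or 0.5 or less, and its interval did not include 1-fold. By this rule 1 of the 10 measured members, miR-30d-3p, was called higher, against 12.9% of all 403 measured entries. None was called lower, 0 of 10, against 6.45% of all measured entries. By the interval alone, whatever the size, 4 members were lower (miR-30a-5p, miR-30c-5p, miR-30e-5p and miR-30a-3p), against 28.5% of all measured entries, and 1 was higher, against 21.3%. The interval rule depends on depth, and the 5p arms are among the deepest entries, so these shares are not like for like.

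Set beside other abundant entries, the 5p folds lay inside the general spread. Over the 77 entries that had 1000 or more counts in both libraries together, the log2 folds had a median of −0.12, a 10th percentile of −0.67 and a 90th percentile of 0.54. Of these 77, 12 (15.6%) had a fold below that of miR-30c-5p and 23 (29.9%) one below that of miR-30a-5p. For miR-30e-5p it was 27 and for miR-30d-5p it was 51. Over all 403 measured entries the median log2 fold was −0.08, over the 5p arms −0.29 and over the 5 measured 3p arms 0.17.

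Distances from that overall median do not change with the scaling. The log2 fold of miR-30c-5p lay at −0.47 from it, that of miR-30a-5p at −0.29 and that of miR-30e-5p at −0.21, while miR-30b-5p lay at 0.08 and miR-30d-5p at 0.11. Totals that omit the 5 most abundant entries moved the median of all measured entries to 0.10. The split of calls over all entries was then 60 higher and 15 lower, in place of 52 and 26.

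**Figure D3:**
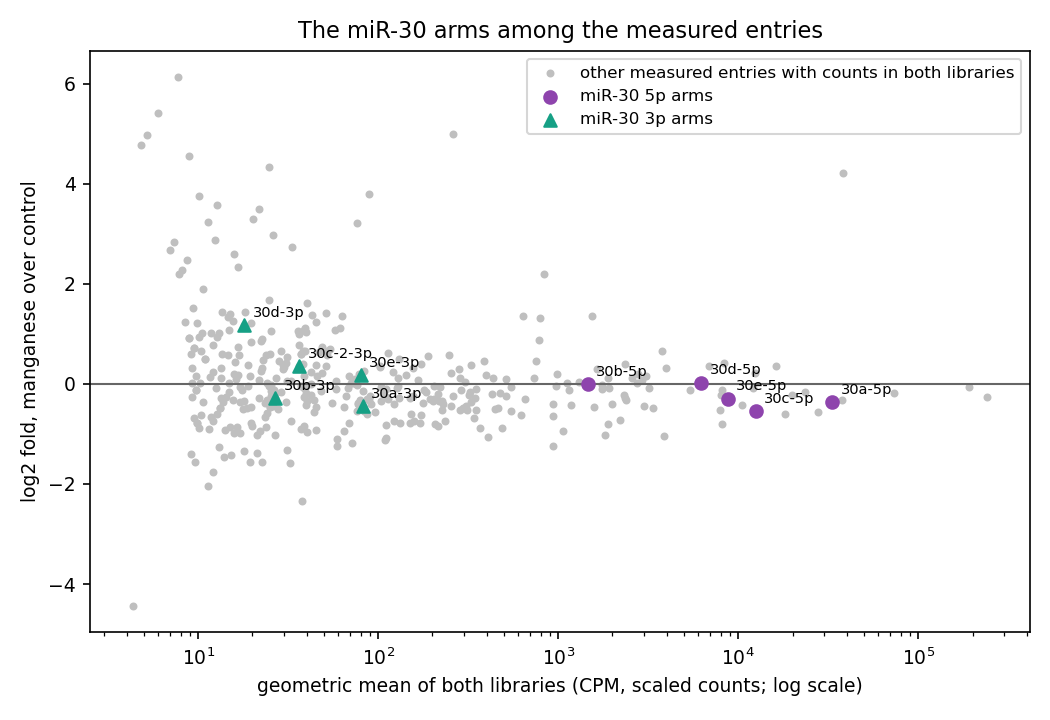
Log2 fold (manganese over control) of each measured entry with counts in both libraries against its geometric mean level (CPM of scaled counts, log axis), with the measured miR-30 5p arms as circles and 3p arms as triangles. The 5p arms sit at the abundant end between −0.55 and 0.03, and the 3p arms sit at low levels, where the other entries scatter more widely.

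The balance between the arms of each name was compared next, since it needs no scaling of the libraries. The 3p share of both arms' counts was 0.459% (exact interval 0.406 to 0.517) with manganese and 0.355% (0.314 to 0.399) in the control over the whole family. The ratio of 3p to 5p counts was 1.30 times as high with manganese (1.09 to 1.54). In both libraries these shares were far below the median share of the less abundant arm over 94 hairpin names with both arms measured, 10.02% with manganese and 9.79% in the control. That median is not like for like, since each arm needs 20 counts and rare names therefore enter only with a high share. Other abundant names lay on both sides of the family. The share was 0.141% with manganese and 0.132% in the control for let-7f, and 0.0110% and 0.00912% for miR-21. For miR-151a it was 15.3% with manganese and 19.8% in the control.

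The names differed in their balance. The 3p share was highest for miR-30b, 1.64% (1.08 to 2.40) with manganese and 1.98% (1.36 to 2.78) in the control. It was 1.07% (0.859 to 1.31) with manganese and 0.774% (0.616 to 0.960) in the control for miR-30e. The share of miR-30a was 0.240% (0.188 to 0.300) with manganese and 0.253% (0.207 to 0.307) in the control, so the pair that differ by 1 base in either arm stood apart in both libraries.

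Between the libraries, the ratio of 3p to 5p counts was higher with manganese for miR-30c by 1.89 times (1.23 to 2.94), where the 5p count was lower and the summed 3p counts were 51 with manganese and 40 in the control. It was 2.22 times as high for miR-30d (1.12 to 4.66) and 1.38 times as high for miR-30e (1.01 to 1.89). For miR-30a it was 0.946 (0.693 to 1.29) and for miR-30b 0.828 (0.472 to 1.44), both including equality. By the same rule 1 of 5 names, miR-30d, was called higher and 0 were called lower. That call rests on the same counts of miR-30d-3p as the member call above, 29 with manganese and 13 in the control, so it is not a separate result. Over the 94 names the less abundant arm was called higher in 11.7% and lower in 6.38%, and the ratio had a median of 0.938 with 10th and 90th percentiles of 0.523 and 2.15.

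Within the miR-30c 3p arms, miR-30c-2-3p made up 86.3% (73.7 to 94.3) of the counts with manganese and 87.5% (73.2 to 95.8) in the control. The intervals overlap, and no shift between the copies was detectable at this depth.

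**Figure D4:**
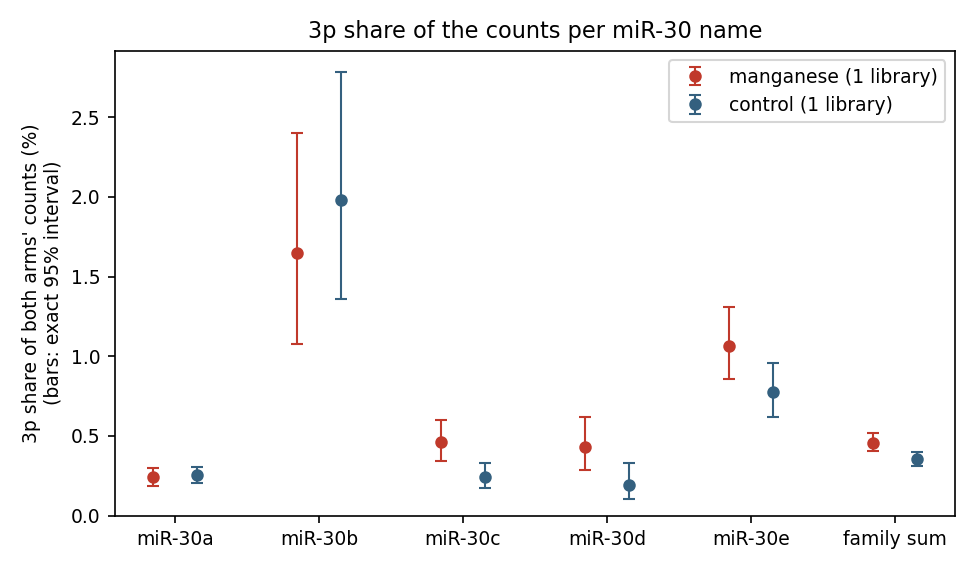
Share of the 3p arm in the counts of both arms (vertical axis, percent) for each miR-30 name and for the family sum, in the manganese and the control library, with exact 95% intervals. The points of miR-30c, miR-30d, miR-30e and the family sum are higher in the manganese library, the intervals of the 2 libraries are apart for miR-30c and the family sum and overlap for the other names, and miR-30b has the highest share in both.

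Seeds were compared over 287 groups, formed from the 340 of 403 measured entries matched to a RefSeq mature sequence and from the miR-30 arms. Among these groups the 5 5p arms ranked 3rd in both libraries. The entry miR-486-5p is in none of them, and it had more counts than the miR-30 sum with manganese, 174822, and fewer in the control, 9597. Of the groups formed, those nearest in counts were led by miR-221-3p, with 27111 counts with manganese and 40455 in the control (0.680, 0.669 to 0.690), by miR-16-5p, with 28355 with manganese and 31428 in the control (0.915, 0.901 to 0.930), and by miR-26b-5p, with 26742 with manganese and 25879 in the control (1.05, 1.03 to 1.07). The fold of the miR-30 sum, 0.786, lay between the first and the second of these.

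The entries with 1000 or more counts most like the 5p sum in log2 fold, over these 2 libraries and 72 entries compared, were miR-27b-3p, let-7b-5p and miR-181c-5p. They lay 0.02, 0.03 and 0.04 log2 units from it. The arm miR-27b-3p had 2278 counts with manganese and 2903 in the control (0.796, 0.753 to 0.841).

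Other miRNAs linked to the same processes moved in several ways. Of the 9 entries of a list of miRNAs known to repress autophagy genes, 5 were measured. Of these, 0 were called higher and 0 lower, against 12.9% and 6.45% of all measured entries. Their median log2 fold was −0.46, against −0.08 over all measured entries. The most abundant, miR-181a-5p, known to repress ATG5, had 9699 counts with manganese and 13104 in the control (0.751, 0.731 to 0.771). Of 8 miRNAs that restrain epithelial-mesenchymal transition, 4 were measured and 2 were called higher, with a median log2 fold of 0.86, against 12.9% called higher of all measured entries. The 2 were miR-200b-3p, with 74 counts with manganese and 32 in the control (2.35, 1.53 to 3.67), and miR-429, with 60 with manganese and 29 in the control (2.10, 1.33 to 3.39), both repressors of ZEB1 and ZEB2. The most abundant of the 4, miR-34a-5p, was near equality, with 330 counts with manganese and 326 in the control (1.03, 0.879 to 1.20). Of the 8 names, 7 are also in the bronchial epithelial marker list, so the same counts stand in both. Of 6 miRNAs linked to the unfolded protein response, 4 were listed at 0 in both libraries and only miR-708-5p was measured, with 12 counts with manganese and 8 in the control.

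Markers of other cell types differed between the libraries. All 5 measured entries of a blood cell list of 10 were called higher with manganese. The share called higher over all measured entries, 12.9%, is the one to set beside each list here. The blood cell list took 16.2% of the manganese library against 0.908% of the control, nearly all of it miR-486-5p, while miR-223-5p was at 0 in both. All 3 measured entries of a mesenchymal list of 5 were called higher as well. The whole list had 3063 counts with manganese and 1102 in the control, of which miR-10b-5p made 2631 with manganese and 1049 in the control. The unmeasured miR-145-5p had 2 counts with manganese and 2 in the control, and miR-214-3p was at 0 in both. Of 8 bronchial epithelial markers, 4 were measured and 2 were called higher, the same miR-200b-3p and miR-429 as above. The most abundant of the 4, miR-183-5p, was near equality, with 81 counts with manganese and 83 in the control (0.990, 0.720 to 1.36). There miR-203a-3p was at 0 in both libraries, and the list summed to 305 counts with manganese and 195 in the control, which is 0.0280% of the manganese library and 0.0183% of the control library. A difference in the number of cells of a type and one in RNA per cell cannot be told apart in such bulk samples. With the blood cell list left out of the totals, the fold of the summed 5p arms was 0.893 (0.884 to 0.903), and those of miR-30b-5p and miR-30d-5p were 1.13 and 1.16 with intervals above 1-fold. Both libraries are labelled as BEAS-2B cells. Where the marker counts came from, and whether that source added to the miR-30 counts, was not tested.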

How the data were processed

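The deposited table gave raw counts per mature miRNA entry, 1 column per library, matched to samples by the column names. The unit was read from the deposited values, which are whole numbers with unequal totals. A second deposited table, other values by the authors, held the manganese minus the control count in 2904 of 2904 entries (tolerance 0 counts) and added nothing. The submitters' processing notes name hg38 as the build, with the aligner, the counter, its miRNA annotation and any filters not given in the sources used here.

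Libraries were scaled by TMM (edgeR 4.0.16, R 4.3.3; factors 0.981 for manganese and 1.02 for control). A fold is the ratio of scaled counts, with an exact conditional (Clopper-Pearson) 95% interval from scipy 1.17.1 in Python 3.11.15; ratios of ratios have exact conditional odds ratio intervals, and pairs of abundant entries, added after the data were seen, have approximate Woolf intervals. With 1 library per group no p-value is given, and reads without molecular identifiers are not independent molecules, so intervals cover counting error only. Entries with 20 or more counts in both libraries together, 403 of the 965 with counts, were called measured. Arm balance summed copies of a name and left out 2 names with an arm at 0 in a library. Folds, intervals and ratios were tested on simulated data. Alternatives were 3 other scalings (total counts, size factors of DESeq2 1.42.0, totals without the 5 most abundant entries), other filters, size rules and summaries. Every member is named; other named entries share a seed with a member, lie nearest in fold or seed-group counts, or pass the rule in a list. miR-27b-3p stands for the nearest entries. The entries miR-181a-5p, miR-34a-5p, miR-708-5p, miR-145-5p, miR-183-5p, miR-486-5p in the account of seed groups, and the markers at 0 (miR-223-5p, miR-214-3p and miR-203a-3p) were picked with their values in view. So were the names let-7f, miR-21 and miR-151a in the account of arm balance. The members and lists were chosen with earlier results of these data known; ratios between arms and sums by locus were chosen after seeing the values.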

Additional observations from a re-analysis of the deposited data

How the results depend on the processing

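The fold of the summed 5p arms kept its direction in each alternative run. It was 0.756 when scaled by total counts, 0.775 with DESeq2 size factors, 0.894 with totals that leave out the 5 most abundant entries and 0.893 with totals that leave out the blood cell list, an alternative added after the data were seen. It was 0.816 as the median of the arms and 0.800 without miR-30a-5p. The intervals of miR-30a-5p, miR-30c-5p and miR-30e-5p lay below 1-fold in all 5 scalings, while 2 of the 11 members, miR-30b-5p and miR-30d-5p, changed sides of 1-fold. The count of members called higher, 1, became 0 with at least 100 counts, where 7 members enter, and 0 under a rule that needs the bound nearest to equality at 2-fold. The summed 3p arms and the arm balance stayed inside their own intervals in the alternatives run, although the 3p sum was 0.979 when scaled by total counts, on the other side of 1-fold. The filter of 100 counts lets fewer members in, and the lower bound of miR-30d-3p, 1.14, is short of 2-fold. A change of scaling moves every fold by the same factor. The ratio of control to manganese library size was 1.01 with TMM and 1.15 with totals that leave out the 5 most abundant entries. For the remaining shifts the cause was not tested. No paired analysis was possible because each group holds 1 library, and for the same reason no replicate could be left out. Counts of at most 104 in every 3p arm limit what can be said of them.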
